A study of Rattus norvegicus with 18 samples.

Results

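The genes described here are 8 genes of the myelin sheath, Mag, Pmp22, Mal, Pmp2, Cnp, Prx, Gjb1 and Mbp, measured in the proximal stump of the transected rat sciatic nerve. They were found by name, as every non-control probe that the array files assign to 1 of these symbols or whose transcript maps to it. That gave 9 of 41012 probes, since Mbp has 2 probes and the others 1 each, and 8 of 35279 gene names. All 9 probes lay well above background on all 18 arrays. RNA came from adult male Sprague-Dawley rats of 180 to 220 g whose left sciatic nerve had lost a segment of 1 cm under anaesthesia. Nerve tissue of 0.5 cm was taken from the proximal side, either at once (the group of 0 h) or after a survival of 0.5, 1, 3, 6 or 9 h. Each time-point was hybridized to 3 Agilent arrays of 1 colour. The sources do not say whether an array holds RNA of 1 rat or of a pool, so the spread between arrays may be partly technical.

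Myelin of peripheral nerve is made by Schwann cells, each of which wraps a stretch of axon in many layers of membrane. The compact layers hold Pmp22, a membrane protein whose gene dose causes inherited neuropathies, Mbp, the basic protein that closes the cytoplasmic faces, and Pmp2, the fatty acid binding protein also called P2. Mag is the adhesion molecule of the inner membrane facing the axon, Gjb1 encodes the gap junction protein connexin 32 of the uncompacted regions, Cnp is a phosphodiesterase of uncompacted myelin, Prx encodes periaxin, which ties the outer surface to the basal lamina, and Mal is a proteolipid of lipid rafts. Schwann cells that lose contact with an axon are known to turn down this set of genes. The paper describes the proximal stump as staying intact apart from retrograde degeneration over a short stretch. Whether axon contact was lost in the tissue taken was not measured.

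Of the 8 genes, Mag and Pmp22 were lower than at 0 h by 6 h, and Mag, Pmp22, Mal and Pmp2 were lower at 9 h. Mag fell furthest, to 53.7% of its 0 h level at 9 h. Mbp, Prx and Gjb1 stood within 0.02 log2 units of their 0 h level at 9 h, and Cnp in between. The calls of Pmp22, Mal and Pmp2 each depended on how the arrays were processed, and that of Mag at 9 h was made under all 6 scalings.

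The probes below carry the values of the gene that moved most and of 3 genes that did not pass the test against 0 h. They are printed from the array files, from 5′ to 3′ in the sense of the transcript, all in lower case because no part is singled out. In rn4, the rat genome build of the files, the Mag probe lies at chr1:85954956-85955015 and is listed from the higher to the lower position. The Cnp probe lies at chr10:89524880-89524939, the Prx probe at chr1:82597427-82597486 and the Gjb1 probe at chrX:89455686-89455745. Exon boundaries of that build were not used here.
Mag: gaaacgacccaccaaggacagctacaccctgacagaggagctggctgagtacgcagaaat
Cnp: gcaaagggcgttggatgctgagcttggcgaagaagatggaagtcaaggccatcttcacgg
Prx: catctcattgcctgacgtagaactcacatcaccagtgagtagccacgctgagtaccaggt
Gjb1: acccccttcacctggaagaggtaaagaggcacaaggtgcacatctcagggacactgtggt
Each is a single window of 60 bases, so that a change of isoform outside the window is not seen. The 2 probes of Mbp lie apart on chromosome 18, 1 at positions 79055910 to 79055969 and the other, whose listed ends span 1939 bases, at 79044276 to 79046214.

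Scanning took place on 3 days. The first day held the groups of 0 h and 0.5 h, the second those of 1 h, 3 h and 6 h plus 2 of the 9 h arrays, and the third replicate 3 of 9 h, so that a difference between 0 h and the later groups and a difference between scan days cannot be told apart except by comparing groups within a day. No slide held arrays of more than a single time-point, so within a day a difference between time-points and a difference between slides cannot be told apart either. Arrays of a time-point correlated at 0.976 to 0.992 over the 32110 tested probes. Cell type markers shifted with time. In units of the array's 75th percentile, the linear signals of 8 neutrophil genes summed to 2.90 to 4.20 in the 0 h group, against 20.4 to 24.4 by 9 h, and those of 8 macrophage genes to 24.3 to 26.5 against 36.7 to 48.7. By the test below, 3 of the 8 macrophage genes were called higher at 9 h, beside 15.8% of all gene names. These were Cd14 (2.15 log2 units), Cd163 (1.55) and Ptprc (1.42). Itgam (1.11), Cd68 (0.59), Csf1r (0.23), Mrc1 (0.06) and Aif1 (0.02) were not called. The sum of 11 Schwann cell genes, which include Mag, Pmp22 and Prx, was 800.0 to 949.7 and 618.6 to 707.1, and that of 6 fibroblast genes 1299 to 1387 and 901.3 to 958.5. For 8 skeletal muscle genes the sum was 1521 on replicate 1 of 0 h, 108.0 and 151.9 on the other arrays of that group, and 1.19 to 143 at 9 h. Of markers of central myelin, Mog, Mobp and Olig1 lay well above background on all 18 arrays, Opalin on 8 and Olig2 on 9. The part of these shifts in the results below was not tested, and in bulk tissue fewer cells of a type and less RNA per cell cannot be told apart.

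Levels are given as log2 signal relative to the 75th percentile of the array, with the mean and SD of 3 arrays, and differences as log2 units with the SE of limma's fit to all 18 arrays. A gene was called when its unadjusted P-value was under 0.01 and its Benjamini-Hochberg adjusted P-value over all tested probes was under 0.05. Limma's F-test across the 6 time-points called 4 of the 8 genes, Mag (adjusted P = 0.000393), Pmp22 (0.00456), Pmp2 (0.0133) and Mal (0.0186), where 34.6% of all 27198 gene names were. Cnp had an adjusted P of 0.0306 but an unadjusted P of 0.0106 and so missed the first limit. Prx (adjusted P = 0.0842), Mbp (0.126) and Gjb1 (0.168) were not called. The count of 4 fell to 1 with normexp background correction, with quantile normalization or in the authors' deposited matrix, to 2 with a shift to the array median, and to 2 without replicate 1 or replicate 3 of 9 h.

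No myelin gene was called lower at 0.5 h, 1 h or 3 h in limma's test, when 1.72%, 2.04% and 6.84% of gene names were, and 0, 0 and 1 of the 8 had an unadjusted P under 0.05 in that direction. At 6 h 2 of the 8 were called lower against a background of 13.0%, and at 9 h 4 of the 8 against 15.4%. None was called higher at any time-point, where in time order 4.28%, 3.59%, 7.16%, 12.0% and 15.8% of gene names were. At 1 h, 3 of the 8 were higher with an unadjusted P under 0.05. In time order the median difference over the 8 genes was -0.02, 0.23, 0.01, -0.30 and -0.31. The median over all gene names stayed within 0.02 of 0 at each time. Over the brightest sixth of probes it was -0.15 at 6 h and again at 9 h.

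**Figure D1:**
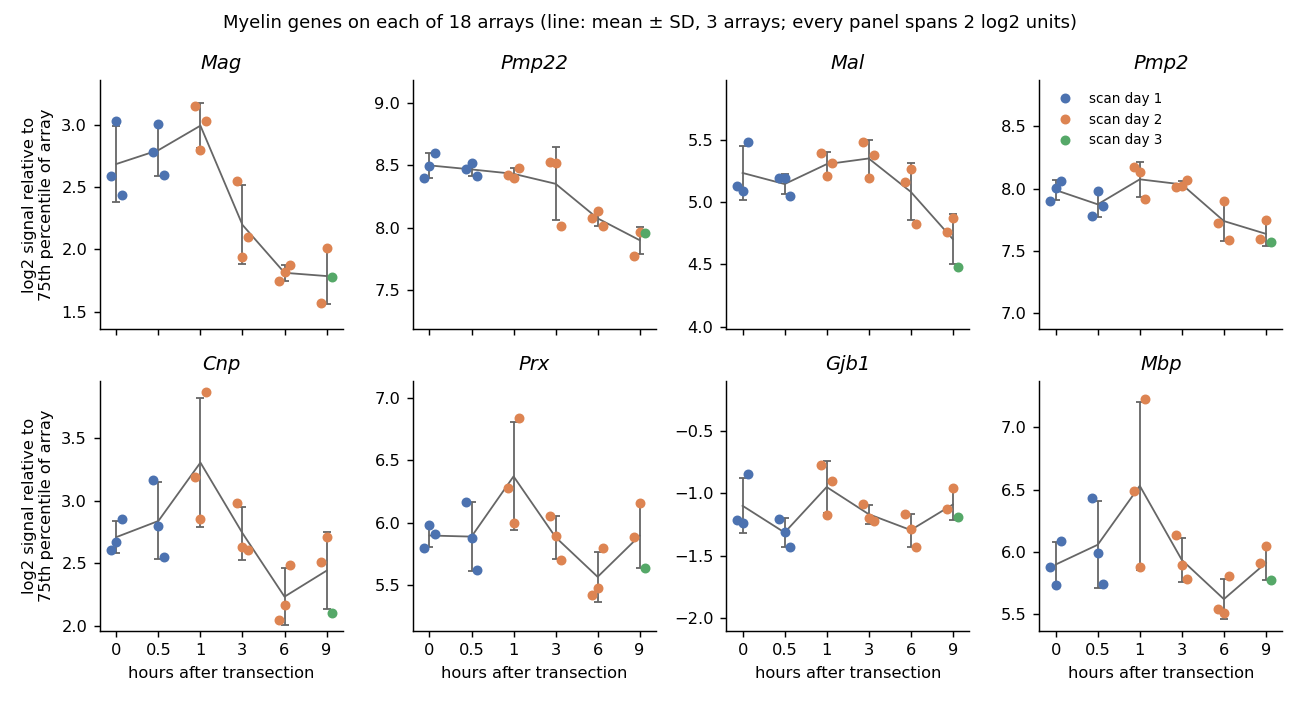
Log2 signal relative to the 75th percentile of the array (y axis) at each time-point in hours (x axis, evenly spaced) for the 8 myelin genes, ordered by their difference at 9 h. Points are arrays coloured by scan day, the line joins time-point means and bars are the SD of 3 arrays. Mag steps down between 1 h and 6 h, Mal falls only at 9 h, and Cnp, Prx and Mbp share a high and scattered 1 h group.

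Mag, the adhesion molecule of the axonal face of the sheath, read 2.59, 3.03 and 2.44 at 0 h and 2.78, 3.01 and 2.60 at 0.5 h. At 1 h it read 3.15, 2.80 and 3.03, and at 3 h 2.55, 1.94 and 2.10. The 3 arrays of 3 h reached from within the 0 h group to well under it. At 6 h it read 1.75, 1.82 and 1.88 and at 9 h 1.57, 2.01 and 1.78, so that every array of these groups lay below every array of 0 h, 0.5 h and 1 h. The difference from 0 h was -0.49 ± 0.18 (SE) at 3 h (adjusted P = 0.0959), -0.87 ± 0.18 at 6 h (0.00353) and -0.90 ± 0.18 at 9 h (0.0023). Without replicate 1 of 3 h, its highest array, the difference of that group was called (-0.67, adjusted P = 0.0342). A fit with scan day as a block can only be made by setting the third day equal to the first, so that it takes the effect of the second day from the 9 h arrays alone, and it cannot show how much of a difference from 0 h belongs to scan day. In that fit Mag was not called at 6 h (-0.88, 0.0962). Mag was thus at 71.3%, 54.6% and 53.7% of its 0 h level in these groups, with 97.1% of its fall at 9 h, in log2 units, present at 6 h.

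Pmp22, the compact myelin protein, read 8.40, 8.50 and 8.60 at 0 h, and between 8.40 and 8.52 on all 6 arrays of 0.5 h and 1 h. At 3 h 2 arrays stayed at 8.53 and 8.52 and the third read 8.01. The values were 8.08, 8.13 and 8.02 at 6 h and 7.77, 7.97 and 7.96 at 9 h, all below the 0 h group. The difference from 0 h was -0.42 ± 0.12 at 6 h (adjusted P = 0.0179) and -0.60 ± 0.12 at 9 h (0.0019), which left 66.0% of the 0 h level. The call at 6 h was lost without replicate 3 of 0 h (adjusted P = 0.0672) or replicate 3 of 6 h (0.0554). It was also lost with normexp background correction (-0.45, 0.134) and with the scan day block (-0.34, 0.32).

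Mal, the raft proteolipid, showed no called difference up to 6 h. It read 5.13, 5.09 and 5.48 at 0 h. The arrays of 3 h (5.48, 5.19 and 5.38) and of 6 h (5.16, 5.26 and 4.83) overlapped them. At 9 h it read 4.76, 4.87 and 4.48, below every array of 0 h, a difference of -0.53 ± 0.14 (adjusted P = 0.0107) that left 69.2%. At 6 h the difference was -0.15 ± 0.14 (0.452). The call at 9 h was lost without replicate 3 of 0 h (-0.41, adjusted P = 0.0539) or replicate 3 of 9 h (-0.42, 0.0541), the array of the third scan day.

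Pmp2, the fatty acid binding protein of compact myelin, read from 7.90 to 8.06 on the 3 arrays of 0 h. Its values were 7.73, 7.90 and 7.59 at 6 h, and 7.59, 7.75 and 7.57 at 9 h. The 9 h arrays lay below all of 0 h and those of 6 h reached up to the lowest of these. The difference was -0.25 ± 0.10 at 6 h (adjusted P = 0.0803) and -0.35 ± 0.10 at 9 h (0.015), with 78.4% left. The arrays of 0.5 h (7.78 to 7.98), 1 h (7.92 to 8.17) and 3 h (8.02 to 8.07) overlapped the 0 h group. Leaving out replicate 2 or 3 of 0 h or replicate 1 or 3 of 9 h each ended the call at 9 h (adjusted P = 0.043, 0.0565, 0.0481 and 0.0548, of which the values under 0.05 missed the limit on the unadjusted P). The scan day block ended it too, by the same limit (-0.42, 0.0405).

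Cnp, the phosphodiesterase, Prx, which encodes periaxin, and Mbp, the basic protein, had no called difference from 0 h. Cnp read 2.61, 2.67 and 2.85 at 0 h, after 1 h it read 3.19, 2.85 and 3.87, after 6 h 2.04, 2.17 and 2.49, and after 9 h 2.51, 2.71 and 2.10. Its differences from 0 h in these 3 groups were 0.60 ± 0.24 (adjusted P = 0.159), -0.48 ± 0.24 (0.161) and -0.27 ± 0.24 (0.407). The 6 h group lay below the 0 h group on all arrays, without being called. Prx read 5.80, 5.98 and 5.91 at 0 h, after 1 h it read 6.28, 6.00 and 6.84, after 6 h 5.42, 5.48 and 5.79, and after 9 h 5.89, 6.16 and 5.64. Its differences were 0.47 ± 0.21 (0.186), -0.33 ± 0.21 (0.253) and -0.00 ± 0.21 (0.995). Here too the arrays of 6 h did not overlap those of 0 h, whereas those of 9 h lay on both sides of them. Mbp, read from the brighter of its 2 probes, was 5.88, 5.73 and 6.09 at 0 h, after 1 h it was 6.49, 5.88 and 7.22, after 6 h 5.55, 5.51 and 5.81, and after 9 h 5.91, 6.05 and 5.78. Its differences of 0.63 ± 0.26 at 1 h (0.168), -0.28 ± 0.26 at 6 h (0.456) and 0.01 ± 0.26 at 9 h (0.975) were not called. Its other probe gave 0.52 ± 0.21, -0.11 ± 0.21 and -0.03 ± 0.21 at the same times, none of them called (adjusted P = 0.155, 0.72 and 0.925). Without replicate 2 of 1 h, the lowest array of its group, the difference of Mbp at 1 h was called higher (0.96, adjusted P = 0.0328).

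Gjb1, which encodes connexin 32, had the signal nearest to the lower end of the scanner's range and showed no called difference. It read -1.22, -1.24 and -0.84 at 0 h and -1.12, -0.96 and -1.19 at 9 h. Between these times its arrays ranged from -1.43 to -1.20 after 0.5 h, -1.17 to -0.77 after 1 h, -1.22 to -1.08 after 3 h and -1.43 to -1.17 after 6 h. Each of these groups overlapped the 0 h group. Its differences were between -0.21 ± 0.13 at 0.5 h (adjusted P = 0.36) and 0.15 ± 0.13 at 1 h (0.507), and 0.01 ± 0.13 at 9 h (0.961).

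The genes were ordered by how far and how early they fell. By the difference at 9 h the order was Mag, Pmp22, Mal, Pmp2, Cnp, Prx, Gjb1 and Mbp. By the first time-point at which all 3 arrays lay below all 3 of 0 h and stayed so, Mag and Pmp22 came first at 6 h, and Mal and Pmp2 followed at 9 h. At 6 h 4 of the 8 genes, Mag, Pmp22, Cnp and Prx, did not overlap the 0 h group and lay below it, beside 22.4% of all gene names, and at 9 h 4 of the 8, Mag, Pmp22, Mal and Pmp2, beside 24.9%. The gap of Prx was within 0.01 log2 units, and its 6 h arrays overlapped those of 0 h when scaled to the brightest sixth, with quantile normalization and in the deposited matrix. In the last 2 of these scalings Pmp22 and Pmp2 overlapped 0 h at both times, whereas Mag at both times, Cnp at 6 h and Mal at 9 h lay below it under all 6 scalings. By 9 h the arrays of Cnp and Prx overlapped those of 0 h again, with those of Cnp reaching below them and those of Prx lying on both sides. The time at which straight lines between the means crossed the midpoint of the fall to 9 h was 2.9 h for Mag, 4.65 h for Pmp22, 5.26 h for Pmp2 and 6.9 h for Mal. Between 1 h and 9 h only 3 h and 6 h were sampled, and these times carry no test. Mag had the largest fall of the 8 at 9 h under all 32 alternative settings that gave a value, and called lower at 9 h in 32 and at 6 h in 31 of them. Over these settings Pmp22 held ranks 2 to 4, Mal 2 to 3, Pmp2 4 to 6 and Cnp 3 to 5. Prx held ranks 6 to 8, Gjb1 5 to 8 and Mbp 6 to 8, so that the order of these last genes was not settled.

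No spot of the 9 probes was saturated on any array. The signal of the Pmp22 probe nevertheless reached 61.9% to 90.6% of the saturation value, with 2 saturated pixels on replicate 3 of 0.5 h, and that of Pmp2 39.4% to 54.4%. The brighter Mbp probe reached up to 29.6%, Prx 10.8% to 22.3%, the other Mbp probe 6.76% to 13.3% and Mal 6.55% to 10.52%. These 6 probes were read on all 18 arrays from the scan at low gain, scaled up by the software, whereas Mag (0.84% to 2.07%), Cnp (1.04% to 2.65%) and Gjb1 (0.10% to 0.14%) were read from the scan at high gain. All percentages are of the 1 saturation value listed for each array, and the limit of the high-gain scan by itself was not used. Mag, the gene with the largest fall, had 0 saturated pixels. Whether the falls of Pmp22 and Pmp2 were understated by signals nearer the ceiling was not tested.

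Scaling changed the result for the brightest probes. Pmp22 held brightness ranks 3 to 18 among the tested probes over the 18 arrays, 3 to 9 at 0 h and 6 to 17 at 9 h, and Pmp2 ranked 25 to 35 at 0 h and 24 on each array of 9 h. Quantile normalization gives a probe the value of its rank. Under it the difference at 9 h was -0.14 for Pmp22 (adjusted P = 0.291) and 0.01 for Pmp2 (0.916), neither of them called, and in the authors' deposited matrix, which has the same distribution on every array, it was -0.15 (0.262) and 0.08 (0.464), with the sign of Pmp2 turned. At 6 h the values for Pmp22 were -0.01 (0.943) with quantile normalization and -0.00 (0.991) in the matrix. Scaled to the median of the brightest sixth of probes, Pmp22 was at -0.34 at 6 h (0.0512) and -0.51 at 9 h (0.00554), and Pmp2 at -0.26 at 9 h (0.0212). Scaled to the median of all probes, Pmp22 was at -0.77 at 9 h (0.00214) and Pmp2 at -0.52 (0.0147). Mal lay at -0.39 at 9 h under quantile normalization (0.0313, called) and at -0.35 in the deposited matrix (0.0431, not called by the unadjusted limit). Mag moved between -0.81 and -1.07 at 9 h over the 6 scalings and was called in each. Normexp background correction left Pmp22 at -0.65 (0.0221) and Mag at -0.96 (0.0306) called at 9 h, and Mal at -0.49 (0.219) and Pmp2 at -0.29 (0.43) not.

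**Figure D2:**
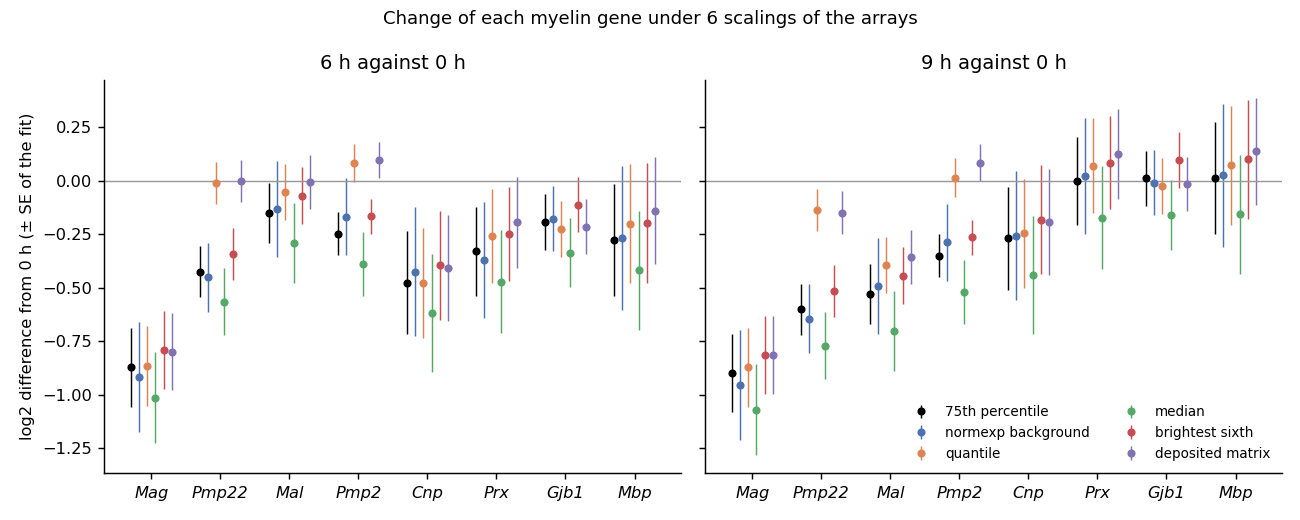
Log2 difference from 0 h (y axis) of the 8 myelin genes (x axis) at 6 h and at 9 h under 6 scalings of the arrays, with the SE of limma's fit. Mag stays between -0.79 and -1.07 in both panels, whereas Pmp22 and Pmp2 come up to between -0.15 and 0.10 under quantile normalization and in the deposited matrix.

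To compare the genes with each other in a way that a shift of a whole array does not touch, the log2 difference of each pair of genes was taken within each array, and its mean on the 6 arrays of 6 h and 9 h was compared with that on the 6 arrays of 0 h and 0.5 h by an exact two-sided permutation test. Of the 28 pairs 11 passed after Benjamini-Hochberg adjustment over the 28, where the smallest P-value the 924 splits allow is 0.00216. Mag fell relative to 6 of the other genes. The change in the within-array difference was -0.96 against Gjb1 (n = 6 and 6, exact permutation, adjusted p = 0.0173), -0.78 against Prx, -0.73 against Mbp and -0.70 against Pmp2 (0.0121 each). It was -0.64 against Mal (0.0303) and -0.44 against Pmp22 (0.0202). Against Cnp it was -0.50, which missed the threshold (0.0505). Pmp22 fell relative to Gjb1 by 0.51 (0.0173) and relative to Pmp2 by 0.25 (0.0121). Cnp fell relative to Gjb1 by 0.45 (0.0331), to Prx by 0.28 (0.0202) and to Mbp by 0.23 (0.0121). Mag, Cnp and Gjb1 were read from the high-gain scan and the other genes from the low-gain scan, scaled up. A within-array difference across these scans can also move with the scaling between them on each array, and this was not tested. Of the pairs that passed, only Mag and Gjb1, Cnp and Gjb1, and Pmp22 and Pmp2 were read from the same scan. So were Mag and Cnp, which missed the threshold. Among neighbours in the order at 9 h, Mag and Pmp22 differed, as did Cnp and Prx. Pmp22 and Mal (adjusted p = 0.14), Mal and Pmp2 (0.664), Pmp2 and Cnp (0.388), Prx and Gjb1 (0.3), and Gjb1 and Mbp (0.185) were not told apart by this exact test. Normexp correction, quantile normalization, the deposited matrix and leaving out any array left 9 to 13 pairs. With the replicate number as a block none of the 28 passed (lowest adjusted p = 0.0519, exact permutation test, smallest possible unadjusted p 0.00926), and 13 had an unadjusted p under 0.05.

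**Figure D3:**
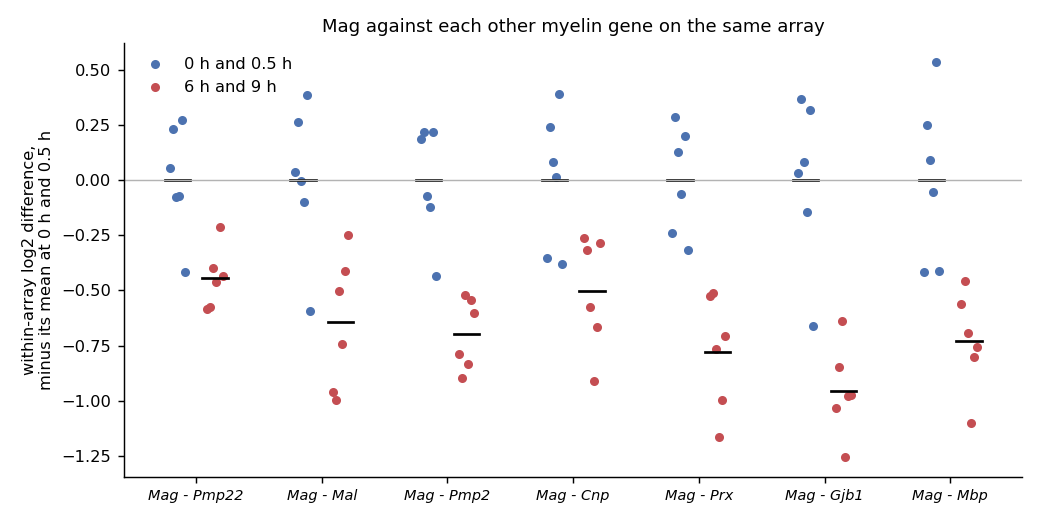
Within-array log2 difference of Mag from each of the other 7 genes (x axis), shifted so that its mean at 0 h and 0.5 h is 0 (y axis). Points are arrays, 6 of 0 h and 0.5 h and 6 of 6 h and 9 h, and bars are their means, which lie 0.44 to 0.96 lower in the later arrays.

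All early arrays of that comparison were scanned on the first day and all late arrays on the other days. Within the second day, with 6 arrays of 1 h and 3 h against 5 of 6 h and 9 h, no pair passed after adjustment (lowest adjusted p = 0.121, exact permutation test), a threshold that a single pair at the smallest possible p cannot pass, and 4 of 28 had an unadjusted p under 0.05. By the same exact permutation test these were Cnp against Prx (-0.26, p = 0.00433, the smallest the 462 splits allow), Mag against Gjb1 (-0.66, p = 0.00866), Cnp against Gjb1 (-0.51, p = 0.013) and Cnp against Mbp (-0.17, p = 0.0173). Each had the direction of the comparison above.

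Limma's fit to the 11 arrays of the second scan day, with 1 h as the reference, gave a different set of calls. At 3 h Mag alone was called lower (-0.80 ± 0.18, adjusted P = 0.0339), beside 2.95% of gene names. At 6 h Mag (-1.18 ± 0.18, 0.00322), Cnp (-1.07 ± 0.25, 0.0163) and Prx (-0.81 ± 0.21, 0.0279) were called lower, beside 11.3%, and Mbp just missed (-0.91 ± 0.29, 0.0504). At 9 h, with 2 arrays, Mag (-1.20 ± 0.20, 0.00611) and Pmp22 (-0.56 ± 0.16, 0.0425) were called, beside 8.06%. The 1 h group that serves as the reference here holds the highest values of Cnp, Prx and Mbp in the series. The call of Mag at 3 h was lost without either replicate 1 or 3 of 1 h, replicate 2 or 3 of 3 h, or replicate 2 or 3 of 6 h. The replicate block and a shift to the array median ended it too. The count of 3 at 6 h was 1 when replicate 2 of 6 h was dropped and 5 when replicate 2 of 1 h was. That of 2 at 9 h was 1 with quantile normalization, a shift to the median or the deposited matrix, 1 without any one of replicates 1 and 2 of 1 h, replicates 1 and 2 of 6 h and replicate 2 of 9 h, and 0 when replicate 1 of 9 h was dropped.

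Cnp, Mbp and Prx also varied together between arrays of the same time-point. Taking from each value the mean of its time-point, the deviations correlated over the 18 arrays at r = 0.968 for Cnp and Prx, 0.932 for Cnp and Mbp and 0.899 for Mbp and Prx. Replicate 3 of 1 h was the highest array for all 3 genes, at 3.87, 6.84 and 7.22, and without it the values were 0.946, 0.88 and 0.822 over 17 arrays. The deviations of Mag correlated with theirs at 0.344 for Cnp, 0.241 for Mbp and 0.433 for Prx. For Gjb1 and Mal, the value was 0.801, and for Mal and Pmp2 0.573. These are descriptions across arrays that share hybridization and scaling, and carry no test.

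**Figure D4:**
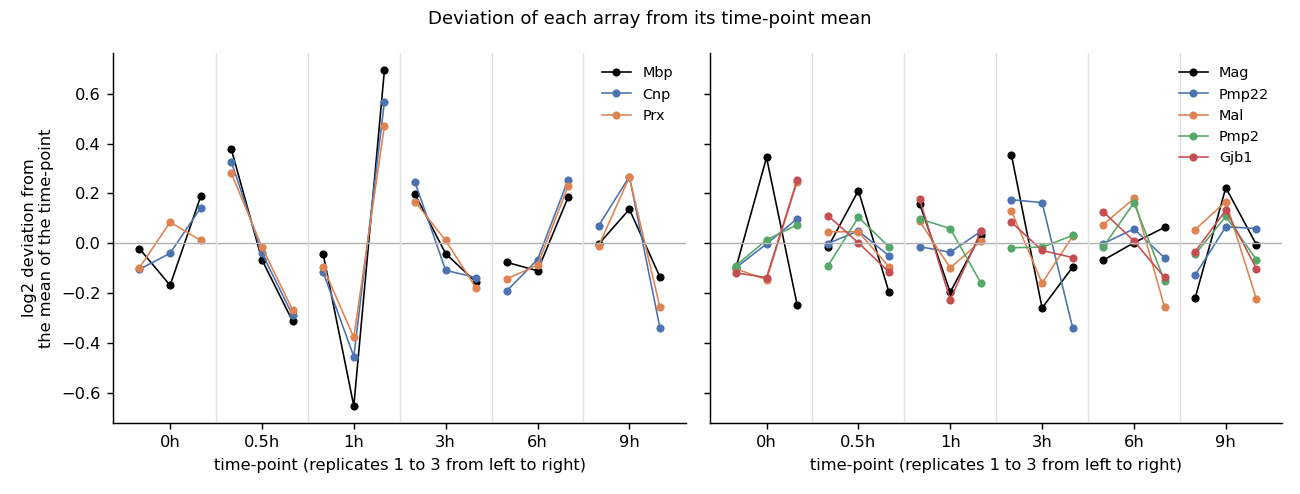
Log2 deviation of each array from the mean of its time-point (y axis) for Mbp, Cnp and Prx (left) and for the other 5 genes (right), with the 3 replicates of each time-point side by side (x axis). The lines of Mbp, Cnp and Prx run together and peak on replicate 3 of 1 h, and on the right those of Gjb1 and Mal are the closest pair, with r = 0.801.

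Other genes of the Schwann cell programme were taken from 5 lists. Of 28 tested further genes of myelin and its attachment, 3 were called lower and 0 higher at 6 h, and 10 lower and 1 higher at 9 h, with a median difference of -0.24 and -0.30. Over all gene names 13.0% and 15.4% were called lower at these times and 12.0% and 15.8% higher, so that the count at 6 h lay near the background. The count of 10 fell to 3 with normexp, to 5 with quantile normalization, in the deposited matrix or without replicate 3 of 9 h, and to 6 without its replicate 1 or replicate 3 of 0 h, and that of 3 ranged from 0 with normexp to 7 without replicate 1 of 0 h. The largest falls called by then were those of Art3, an ADP-ribosyltransferase (-0.74 ± 0.12, adjusted P = 0.00034), Itgb4, the integrin beta 4 chain that binds the Schwann cell to its basal lamina (-0.71 ± 0.12, 0.000727), Mpzl1 (-0.71 ± 0.14, 0.00227) and Cdh19, a cadherin of Schwann cells (-0.60 ± 0.16, 0.00905). Dag1, dystroglycan, a laminin receptor that links periaxin to the basal lamina, was called at 6 h (-0.37 ± 0.11, 0.0223), as were Itgb4 (-0.55 ± 0.12, 0.00453) and Art3 (-0.47 ± 0.12, 0.00877). The gene called higher at 9 h was Cadm4, an adhesion molecule of the inner face of the sheath like Mag (0.55 ± 0.18, 0.0279), which was also called at 1 h (0.67 ± 0.18, 0.045).

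Myelin membrane is rich in cholesterol and long-chain fatty acids. Of 27 genes of cholesterol and fatty acid synthesis, 18 were called lower at 6 h and 16 at 9 h, none higher, with medians of -0.49 and -0.56, beside the same background of 13.0% and 15.4% called lower and 12.0% and 15.8% called higher. The count of 18 fell to 4 with normexp, to 11 with quantile normalization, to 9 in the deposited matrix, to 8 without replicate 2 of 0 h, to 9 without its replicate 3 or replicate 1 of 6 h, and to 11 without replicate 3 of 6 h, and the count of 16 fell to 9 with normexp. No test compared the lists with each other. At 3 h none was called lower and 1 higher, where 6.84% and 7.16% of all gene names were. The largest falls at 6 h were those of Dhcr7 (-1.08 ± 0.16, adjusted P = 0.00032), Lss, the cyclase that forms lanosterol (-0.81 ± 0.20, 0.01), Elovl6 (-0.72 ± 0.16, 0.00418) and Mvd (-0.71 ± 0.16, 0.00422). At 9 h the largest were Elovl6, a fatty acid elongase (-0.88 ± 0.16, adjusted P = 0.000838), Hmgcs1, which feeds the mevalonate pathway (-0.86 ± 0.17, 0.0015), Dhcr7, the last step to cholesterol (-0.82 ± 0.16, 0.00162), and Mvd, an enzyme of the mevalonate pathway (-0.76 ± 0.16, 0.00223). The median stayed below 0 under all scalings at 9 h for this list (-0.37 to -0.73) and for the other myelin genes (-0.16 to -0.47).

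Regulators of myelin genes are given singly, and in time order 1.72%, 2.04%, 6.84%, 13.0% and 15.4% of all gene names were called lower and 4.28%, 3.59%, 7.16%, 12.0% and 15.8% higher. Of 9 tested activators, Egr2, the transcription factor that drives myelination, was higher in the first 3 groups after injury, by 1.23 ± 0.17 (adjusted P = 0.00144), 1.43 ± 0.17 (0.000332) and 1.08 ± 0.17 (0.000968), and not called after 6 h (0.27) or 9 h (0.42). Zeb2 was lower at 6 h (-0.52 ± 0.11, 0.00413) and 9 h (-0.52 ± 0.11, 0.00315), Pou3f1 at 9 h (-0.54 ± 0.14, 0.0108), and Nfatc4 at 3 h (-0.82 ± 0.14, 0.00143). Of 8 repressors, Jun, a brake on myelination, was higher by 1.93 ± 0.16 at 0.5 h (2.19e-05) and 1.89 ± 0.16 at 1 h (1.91e-05) and had no called difference after that. Notch1, the receptor, was higher at 0.5 h (1.06 ± 0.23, 0.0166). Ednrb was higher from 3 h on (0.58 ± 0.16, 0.85 ± 0.16 and 0.58 ± 0.16), and Sox2 at 6 h (0.60 ± 0.16, 0.0138) and 9 h (0.68 ± 0.16, 0.0054). Id4, an inhibitor of helix-loop-helix factors, was higher at 6 h (0.55 ± 0.18, 0.0378).

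Of 8 genes of immature or non-myelinating Schwann cells, 2 were called higher and 3 lower at 9 h, where 15.8% and 15.4% of all gene names were, and the list's median was -0.56. Those called higher were Gfap, an intermediate filament (3.55 ± 0.19, adjusted P = 4.03e-08), and Ngfr, the p75 neurotrophin receptor (0.97 ± 0.18, 0.00104). The adhesion molecules Ncam1 (-0.85 ± 0.28, 0.0292), L1cam (-0.67 ± 0.11, 0.000539) and Cdh2 (-0.63 ± 0.19, 0.0185) were lower. S100b, a calcium-binding protein of Schwann cells, was called higher at 6 h (1.08 ± 0.34, 0.0301) and not at 9 h (0.65 ± 0.34, 0.148). Gfap was already higher at 1 h (1.34 ± 0.19, 0.00126), before any of the 8 myelin genes was called lower against 0 h.

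**Figure D5:**
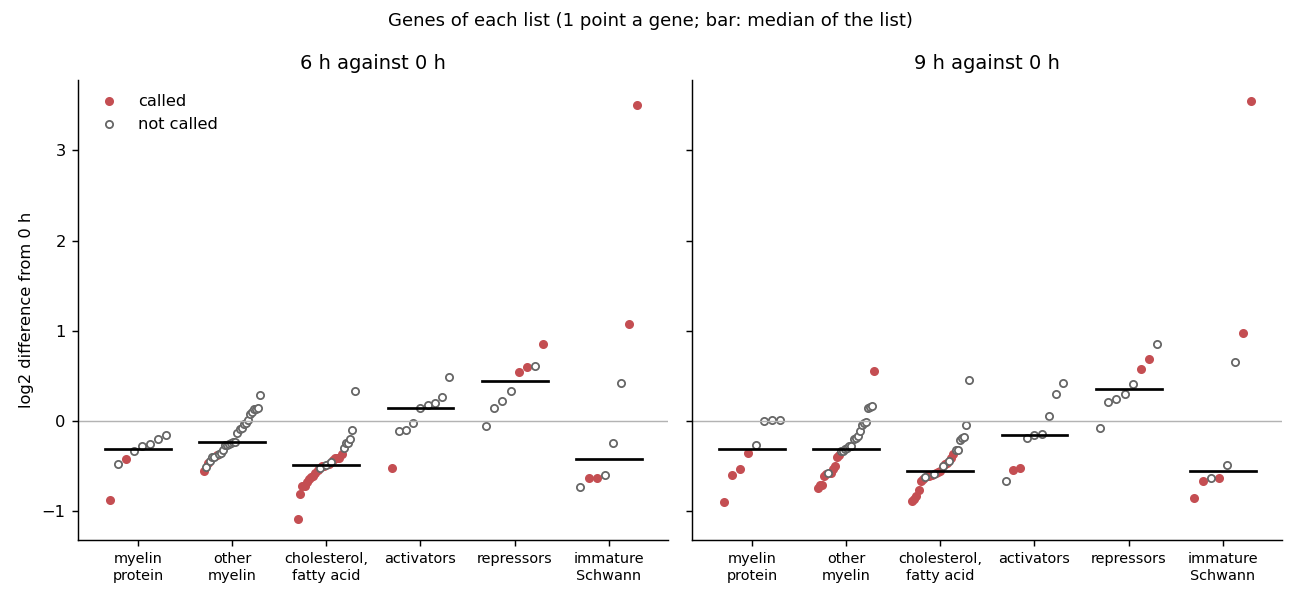
Log2 difference from 0 h (y axis) at 6 h and at 9 h of each gene of the 8 myelin genes and of 5 lists (x axis), filled where called. Bars are list medians. The median of the cholesterol and fatty acid list lies at -0.49 and -0.56, that of the immature Schwann cell list at -0.42 and -0.56, and that of the 8 myelin genes at -0.30 and -0.31.

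The courses most like those of the called genes were sought among 13367 tested genes with a listed symbol, by Pearson correlation over the 18 arrays, as a description with no test. Nearest to Mag were Ctnnbip1 (r = 0.95), Ntrk3, the neurotrophin-3 receptor (0.929), and Hapstr2 (0.928), with differences at 9 h of -0.30, -0.91 and -0.52. Nearest to Pmp22 were the matrix genes Sparc (0.952) and Col1a2 (0.935), with Bicd1 (0.936) between them. Nearest to Mal were Sorcs1 (0.937), Clcn3 (0.93) and Ctnna3 (0.922). Nearest to Pmp2 were Itfg1 (0.963), Fxyd3 (0.956) and Tm7sf2, a sterol reductase (0.954). For the mean of the 8 genes they were Sfi1 (0.969), St8sia5 (0.954) and Slc25a1, the mitochondrial citrate carrier that supplies lipid synthesis (0.953). The arrays share hybridization, scaling and scan days.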

How the data were processed

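Total RNA of proximal sciatic nerve was hybridized to 18 one-colour Agilent arrays, 3 per time-point. The authors deposited scanner output of Feature Extraction (version 10.5.1.1 in the files), whose processed signal is a linear intensity with background subtracted and spatial trends removed, and a matrix of quantile-normalized log2 values. Flags for control, outlier, saturated and well above background spots were used as deposited. The paper names GeneSpring GX but no normalization.

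Here control and outlier spots were left out, log2 processed signal was taken relative to each array's 75th percentile, and repeated spots were averaged. Testing took the 32110 probes (27198 gene names) that were well above background on all 3 arrays of some time-point. Of 41012 probes 16336 were named through their accession in RefSeq's list of genes on GRCr8. Replicates and time-points come from the sample titles. Limma (prior degrees of freedom 1.94) fitted all 6 time-points in 1 model, after a test on simulated data. For genes with several probes the one with the highest mean is reported, with the others given for myelin genes. Outside those, the text names up to 4 called genes per list and direction by size in the contrast described, and the 3 genes most correlated with each myelin gene called at 9 h and with their mean. The myelin genes and the lists were chosen with earlier results of these data known.

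Results were recomputed with quantile normalization, normexp background correction (offset 50), shifts to the median or the brightest sixth, the deposited matrix, no filter or a stricter filter on dim probes, replicate number or scan day as a block, slide as a random block (correlation -0.0125), array weights, only the 6 arrays of a contrast, the adjusted P alone, mean signal without background subtraction, and each array left out. The number of arrays limits the precision. Some genes of the lists count in them without being named. R 4.3.3, limma 3.58.1, data.table version 1.17.8, matplotlib 3.10.9, scipy 1.17.1, pandas 2.3.3, numpy 2.4.6 and Python 3.11.15 were used.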

Additional observations from a re-analysis of the deposited data

How the results depend on the processing

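Of 1285 differences of single myelin genes recomputed under the alternatives, 1257 kept their side of the threshold, 23 lost a call, 3 gained one and 2 reversed, both of Pmp2 at 9 h (0.014 with quantile normalization and 0.084 in the deposited matrix). Most of the 1285 were of differences not called as reported, which had no call to lose. Each called difference was recomputed under 32 alternatives. Besides the 2 reversals, Pmp2 at 9 h lost its call in 8 of them and Pmp22 at 6 h in 7. Mal at 9 h lost it in 5, Pmp22 at 9 h in 2, Mag at 6 h in 1 and Mag at 9 h in 0. Among the recomputed values of differences not called as reported, 75 changed sign. The count called in the F-test was 4, and 1 with normexp, quantile normalization or the deposited matrix, 2 with a shift to the median, and 2 to 6 with 1 array left out (2 without replicate 1 or 3 of 9 h). At 0.5 h and 1 h no setting called a gene lower, and at 3 h 0 or 1 was called with 1 array left out. The count of 2 at 6 h became 1 with normexp, quantile normalization, the brightest sixth or the deposited matrix, 0 with scan day as a block, a fit that can only set the third scan day equal to the first, and 1 to 3 with 1 array left out. The count of 4 at 9 h became 2 with normexp, quantile normalization or only the 6 arrays of the contrast, 1 in the deposited matrix, and 2 to 4 with 1 array left out, the lower counts without replicate 3 of 0 h or of 9 h. Within the second scan day the count of 1 at 3 h was 0 with a shift to the median and 0 to 1 with 1 array left out, that of 3 at 6 h was 1 to 5 (the lowest when replicate 2 of 6 h, the highest when replicate 2 of 1 h was left out), and that of 2 at 9 h was 1 with quantile normalization, a shift to the median or the deposited matrix, and 0 to 2 with 1 array left out (1 without replicate 1 or 2 of 1 h, replicate 1 or 2 of 6 h, or the second array of 9 h, and 0 when the first array of 9 h was dropped, where a lone array is assumed to vary like the other groups). The 11 pairs were 0 on the second scan day alone and 9 to 13 with 1 array left out.

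Arrays with the same replicate number did not deviate together (r from -0.26 to 0.56, median 0.07 against 0.01 for other pairs of arrays), so the numbers were not taken to pair the samples. With the replicate block the count within the second scan day was 0 at 3 h, and of the pairs 0 passed (lowest adjusted p = 0.0519 in the exact permutation test, 13 with an unadjusted p under 0.05, smallest possible 0.00926). The counts against 0 h were the same with the block.

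The list counts, whose alternatives were added after seeing the data, moved as well. Other myelin genes called lower at 6 h were 3, with normexp 0, with a shift to the median or the mean signal 5, in the deposited matrix 1, and 2 to 7 with 1 array left out (7 without replicate 1 of 0 h, the array with the highest muscle signal). At 9 h they were 10, with normexp 3, with quantile normalization or in the deposited matrix 5, and 5 to 11 with 1 array left out (5 when the third array of 9 h was dropped, and 6 when the first was or the third of 0 h). Cholesterol and fatty acid genes called lower at 6 h were 18, with normexp 4, with quantile normalization 11, in the deposited matrix 9, and 8 to 18 with 1 array left out (8 when replicate 2 and 9 when replicate 3 of the 0 h group was dropped, 9 for replicate 1 and 11 for replicate 3 of the 6 h group), and at 9 h 16, with normexp 9, and 12 to 20 with 1 array left out. Signal over background did not limit the myelin probes, which lay well above it on all 18 arrays.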
